A study of Mus musculus with 4 samples.

Results

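H19, Igf2 and Ins2 are 3 neighbouring genes on distal mouse chromosome 7, and they are 3 of 37310 genes in the annotation used. RAD21 binding was examined from 100 kb before the first to 100 kb after the last of them, at chr7:149661434-149985415 on build mm9. This interval of 324 kb holds 12 annotated genes. It held 3 of the 15311 RAD21 sites deposited for embryonic stem cells (ESCs) and 3 of the 11022 sites deposited for embryoid bodies (EBs), the aggregates in which ESCs differentiate. The genes are given by name and the sites by position, and every site in the interval is described.

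RAD21 is the kleisin that closes the cohesin ring, which keeps sister chromatids paired and folds chromosomes into loops. Along chromosome arms cohesin is often halted where the zinc finger protein CTCF is bound. The H19 and Igf2 locus is a classic case of imprinting through CTCF. A control region upstream of H19 binds CTCF on the maternal chromosome, where it keeps Igf2 from enhancers on the far side of H19. On the paternal chromosome the region is methylated, CTCF is absent and Igf2 is transcribed. H19 makes a non-coding RNA that hosts the microRNA Mir675, Igf2 encodes insulin-like growth factor 2, and Ins2 encodes an insulin.

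The feeder-free R1/E ESC line used carries, beside its own Rad21 gene, a bacterial artificial chromosome with Rad21 fused to a GFP tag, so that all 4 libraries come from cells with the transgene. ESCs were collected at day 0 in medium with LIF, and EBs grown from the same tagged cells by the hanging drop method were collected at day 12. From each of the 2 cell states there was 1 library precipitated with an antibody to GFP (RAD21) and 1 precipitated with goat IgG, which the labels also describe as input DNA. An EB holds a mixture of cell types, and the files hold read positions without bases or any mark of the parental chromosome, so the maternal and paternal copies of the locus cannot be told apart. With 1 library per group there is no replicate check and no p-value. The intervals given are exact 95% intervals that cover counting error only, and a ratio is called higher or lower here when its interval leaves out 1.

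The sequences that carry the locus's best-known CTCF sites come first, because the RAD21 reads below can be read against them. The pattern CCGCNNGGNGGCAG, in which N is any base, was searched on both strands. It is a fixed-letter form of the CTCF sites known from the control region, and it was added after the reads of the locus had been seen. It matched 4 times in the interval, each time on the minus strand and each time within the control region, taken here as 2000 to 4000 bp upstream of the H19 start. The printed stretches lie on mm9, minus strand, at chr7:149766194-149766247, chr7:149766649-149766702, chr7:149767675-149767728 and chr7:149767919-149767972, with the match in capitals and 20 bases on each side.
Control region match 1: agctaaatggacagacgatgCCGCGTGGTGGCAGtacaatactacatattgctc
Control region match 2: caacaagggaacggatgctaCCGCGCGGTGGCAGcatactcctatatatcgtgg
Control region match 3: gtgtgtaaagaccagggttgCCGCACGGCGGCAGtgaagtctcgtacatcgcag
Control region match 4: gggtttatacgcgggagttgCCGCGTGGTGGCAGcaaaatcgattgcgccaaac

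Matches 1 and 4 had identical letters in capitals. The centres lay 2172, 2627, 3653 and 3897 bp upstream of the H19 start, so they fell into a pair nearer to H19, 455 bp apart, and a pair further off, 244 bp apart. On all of chromosome 7 the pattern had 55 matches, in 52 of 76263 windows of 2000 bp (0.0682%). The control region was the only place on the chromosome with 4 of them within 2000 bp. Because the pattern was taken from the known sites of this region, that is a description and no test. Of the 55 matches, 4 lay in a deposited ESC site and 3 in a deposited EB site, none of them in the control region.

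The sites that were deposited for the locus were searched with a weight matrix of 20 bases, learned at ESC summits on the even-numbered autosomes and therefore without chromosome 7. A match was scored in bits against rates of 1e-05 and 1e-04 per position of random windows (limits of 19.21 and 11.03 bits). The matches of 3 sites are printed below on the minus strand with the 20 matched bases in capitals. They lie at chr7:149858207-149858266, chr7:149861739-149861798 and chr7:149923839-149923898 (mm9).
Shared site nearer to Igf2, 13.1 bits: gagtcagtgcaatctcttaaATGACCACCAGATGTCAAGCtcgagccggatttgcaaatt
Shared site nearer to Ins2, 19.1 bits: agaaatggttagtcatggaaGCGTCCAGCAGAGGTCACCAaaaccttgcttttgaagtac
EB-only site beyond Ins2, 16.2 bits: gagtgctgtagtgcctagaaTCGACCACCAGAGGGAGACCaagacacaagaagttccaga

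All 3 of these matches passed the looser limit and none the stricter one, which the shared site nearer to Ins2 missed by less than 0.1 bits. Over the autosomes 84.0% of ESC and 78.8% of EB sites had a match within 150 bp of the summit at the looser limit. At the stricter limit these shares were 35.6% and 27.0%. Random windows had a match in 2.80% and 0.366%. With so few sites in the locus, their matches are a description. The 3 matches lay on the minus strand, as did the 4 matches of the control region. The deposited summits lay on the 3′ side of the matched bases as printed, 39.5 bp (ESC) and 28.5 bp (EB) from their centre at the shared site nearer to Igf2, 88.5 and 95.5 bp at the one nearer to Ins2, and 48.5 bp at the EB-only site. The authors report that RAD21 lies upstream of the CTCF motif over all their peaks. The orientation of their motif was not compared with the one printed here. The matrix scored the 4 control region matches at only 8.97, 6.15, 3.90 and 9.78 bits, all under both limits.

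**Figure D1:**
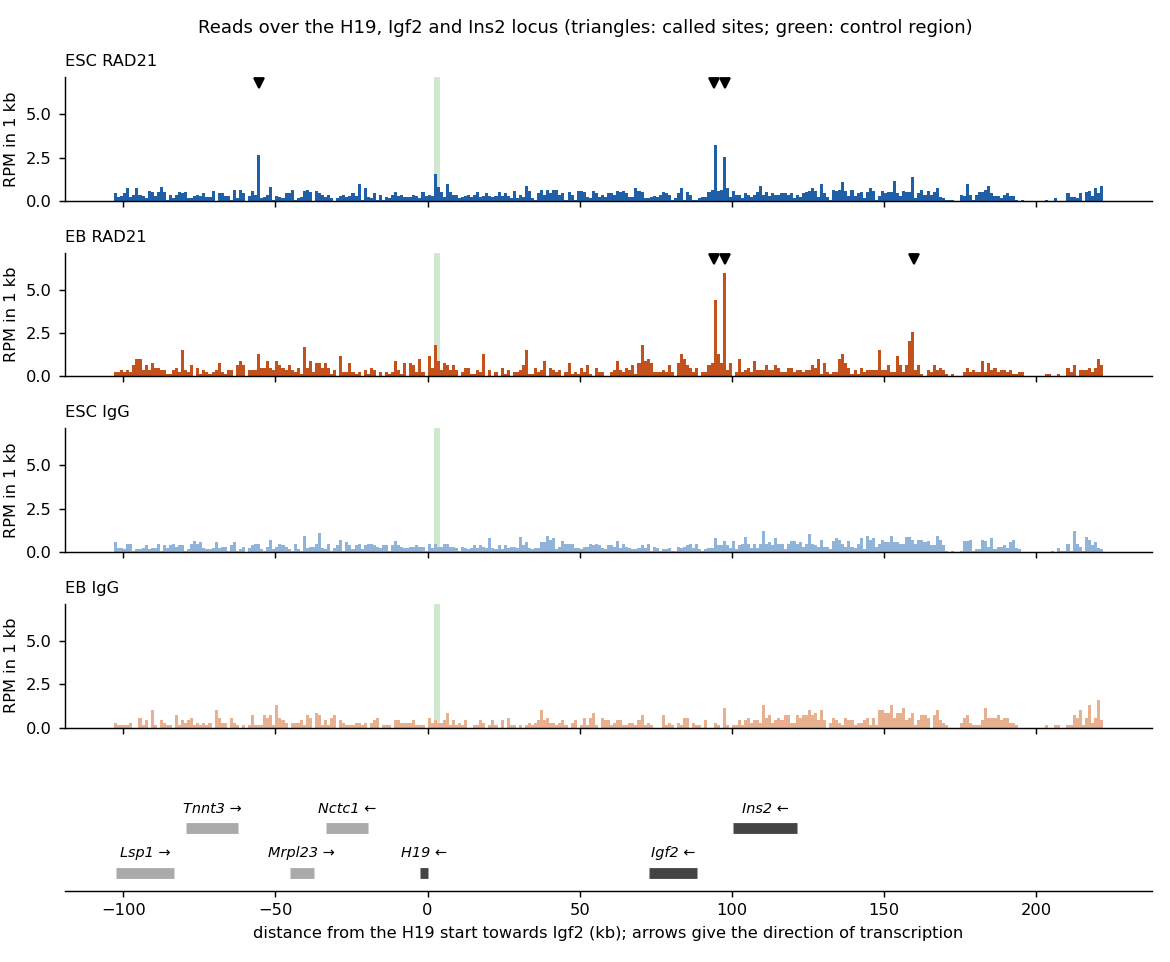
Reads per 1000000 autosomal reads (RPM) in bins of 1 kb (y axis) along the locus, by distance from the H19 start in kb (x axis, positive towards Igf2), in the ESC RAD21, EB RAD21, ESC IgG and EB IgG libraries. Triangles mark deposited sites, the green band the control region and bars below the genes with their direction of transcription. The shared pair near 94 and 97 kb stands out in both RAD21 libraries and the ESC-only site near -56 kb in ESCs.

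In both lists the density of sites was 9.26 per Mb. It was 5.92 per Mb on chromosome 7 and 6.10 per Mb over the autosomes for ESC sites, and 3.78 and 4.36 per Mb for EB sites. With 3 sites in each list, these densities differ by only a few sites. In the locus 91.2% of the 35-base sequences occur once in the genome, so sites in repeated sequence could be missing from either list. Of these ESC sites, 2 of 3 (66.7%, interval 9.43 to 99.2%) shared at least 1 bp with an EB site, against 48.6% of ESC sites on the autosomes. The same 2 pairs were 66.7% of the EB sites of the locus, against 68.3% of EB sites on the autosomes. The locus therefore held 4 separate sites, of which 2 were shared. None lay within H19, Igf2 or Ins2, within the control region, or within 1000 bp of any of the 12 gene starts.

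The shared pair lay in the gap of 11839 bp between the upstream end of Igf2 and the far end of Ins2. Both genes are transcribed towards H19, so these sites lie upstream of Igf2 and beyond the 3′ end of Ins2. The ESC and EB summits of the same site were 11 bp apart at the site nearer to Igf2 and 7 bp apart at the other, where the EB summit lay on the Igf2 side of the ESC summit (-7 bp). The 2 sites were 3483 bp from each other by their ESC summits and 3465 bp by their EB summits.

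The shared site nearer to Igf2 was deposited at chr7:149857643-149858718 in ESCs and chr7:149857824-149858711 in EBs. Its ESC summit was intergenic, 5476 bp upstream of the Igf2 start. Within 250 bp of that summit there were 31 ESC RAD21, 27 EB RAD21, 6 ESC IgG and 0 EB IgG reads. Scaled by autosomal reads, RAD21 was 4.75 times IgG in ESCs (1.95 to 13.9), and in EBs at least 8.06 times IgG when the IgG count of 0 is set to 3 reads. The exact interval of the EB ratio starts at 6.11. These ratios are a description, since the site was called on that contrast. The EB level was 1.54 times the ESC level (0.886 to 2.67), a difference within counting error. With random windows of like GC content set to 1, it was 1.84 (1.06 to 3.19) and left out 1, while with the median of the shared autosomal sites set to 1 it was 1.20 (0.689 to 2.08).

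The shared site nearer to Ins2 was deposited at chr7:149861312-149862250 in ESCs and chr7:149861131-149862234 in EBs. It was intergenic, 2881 bp beyond the 3′ end of Ins2 and 8959 bp upstream of the Igf2 start. Around its ESC summit there were 32 ESC RAD21, 42 EB RAD21, 6 ESC IgG and 6 EB IgG reads. The shallower EB library held more reads here than the deeper ESC library. In ESCs RAD21 was 4.90 times IgG (2.02 to 14.3), and in EBs 6.27 times (2.65 to 18.0). The EB level was 2.33 times the ESC level (1.43 to 3.81), and 2.40 times (1.47 to 3.95) around the EB summit. This was the only one of the 4 sites whose EB to ESC interval left out 1. Over the autosomes 10.1% of ESC sites were higher in EBs by this rule and 22.5% lower, with a median ratio of 0.787 over all ESC sites and 1.29 over the shared ones. Of the EB sites 35.1% were higher in EBs and 1.06% lower, with a median of 1.60. The EB IgG level at this site was 1.82 times the ESC IgG level, from 6 reads in each library (0.486 to 6.80). With scaled IgG reads subtracted, the EB to ESC ratio of RAD21 was 2.46, a value without an interval. The part of IgG in this ratio was not tested beyond that.

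**Figure D2:**
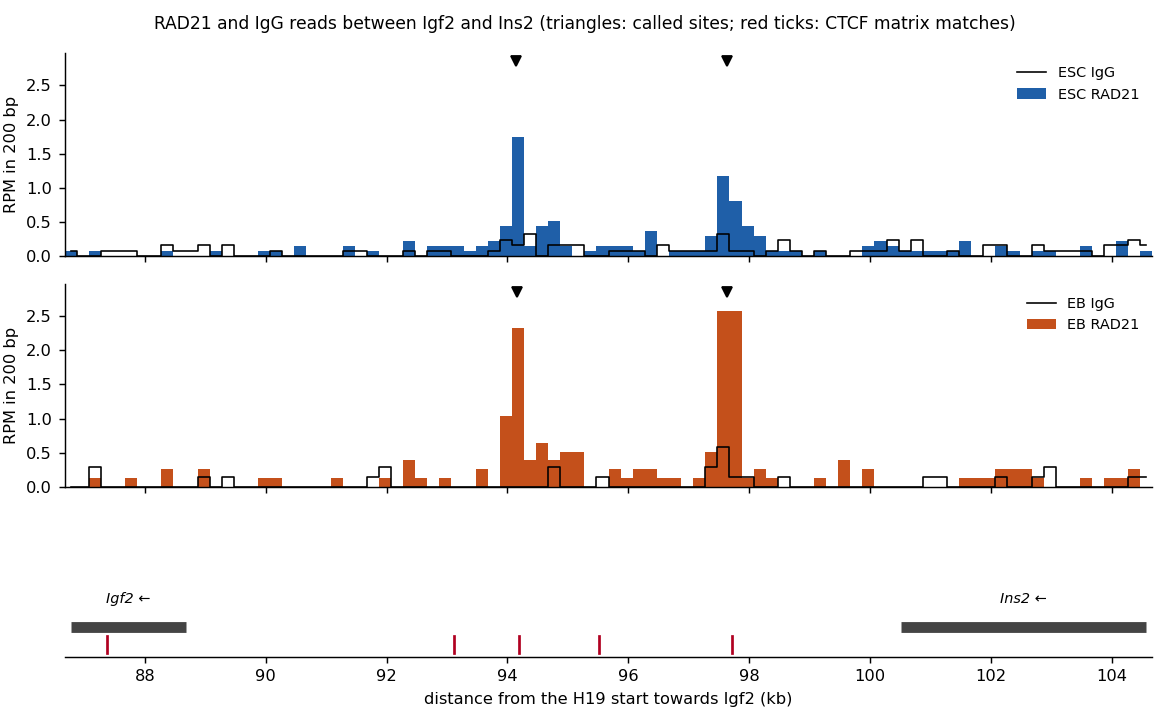
RPM in bins of 200 bp (y axis) between Igf2 and Ins2, by distance from the H19 start in kb (x axis), with RAD21 as bars and IgG as a black line, ESCs above and EBs below. Triangles mark deposited sites, red ticks matches of the CTCF matrix at a rate of 1e-04. Both sites rise above IgG in both cell states, and the bars of the site at 97.6 kb are taller in EBs.

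A further match of 18.3 bits lay between the 2 shared sites and was read from the plus strand, facing the opposite way. It had 5 ESC RAD21, 1 EB RAD21, 0 ESC IgG and 1 EB IgG reads within 250 bp and no deposited site. With the shared sites taken out, the rest of the gap between Igf2 and Ins2 held 55 ESC RAD21, 38 EB RAD21, 36 ESC IgG and 9 EB IgG reads. In ESCs the interval of RAD21 over IgG there was 0.906 to 2.20 and held 1. In EBs RAD21 was 3.78 times IgG (1.80 to 8.89), where the IgG density was the lower of the 2 IgG libraries.

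The ESC-only site was deposited at chr7:149708006-149708930, with its summit 55.5 kb from the H19 start on the side away from Igf2. It lay between genes, 6624 bp past the end of Tnnt3, which encodes a troponin of skeletal muscle, and 10166 bp before the start of Mrpl23, which encodes a mitochondrial ribosomal protein. Its score of 134 was above that of 71.3% of ESC sites. There were 26 ESC RAD21, 6 EB RAD21, 4 ESC IgG and 1 EB IgG reads, and RAD21 was 5.97 times IgG in ESCs (2.07 to 23.5). The EB level was 0.409 times the ESC level, but the interval (0.138 to 1.02) just held 1. With the median of the shared autosomal sites set to 1, it was 0.318 (0.107 to 0.790) and left out 1, while with random windows of like GC content set to 1 it was 0.622 (0.209 to 1.55). The EB RAD21 reads were 5.37 times EB IgG, with an interval of 0.652 to 247 that rests on 1 IgG read, and 8.95 times (1.27 to 389) within 500 bp of the summit, so the site's absence from the EB list does not show that RAD21 was absent there. The best matrix match near the summit reached 8.96 bits, under both limits, whereas 84.0% of ESC sites over the autosomes had a match at a rate of 1e-04 within 150 bp.

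The EB-only site was deposited at chr7:149923628-149924126, 38405 bp upstream of the annotated Ins2 start and 159.8 kb from H19. Its score of 51.3 was above that of only 2.37% of EB sites, just inside the limit for calling. There were 9 ESC RAD21, 12 EB RAD21, 5 ESC IgG and 3 EB IgG reads around the summit. The EB level was 2.36 times the ESC level (0.914 to 6.35), and EB RAD21 was 3.58 times EB IgG (0.966 to 19.8), so that counting error covered both differences. Within 500 bp both left out 1, at 2.51 (1.13 to 5.76) and 3.04 (1.08 to 10.6). Its match of 16.2 bits on the minus strand had a neighbour of 16.4 bits on the plus strand, 832 bp nearer to Ins2, with 12 ESC RAD21, 10 EB RAD21, 3 ESC IgG and 2 EB IgG reads and no deposited site.

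The control region held no deposited site, yet its reads were above IgG in both cell states. Its 2001 bp held 32 ESC RAD21, 21 EB RAD21, 10 ESC IgG and 5 EB IgG reads. In ESCs RAD21 was 2.94 times IgG (1.41 to 6.71), and in EBs 3.76 times (1.38 to 12.8). Of random windows of the same length, at least 2000 bp from any deposited site, 1.87% were above IgG by this rule in ESCs and 1.35% in EBs. The 95th percentile of these windows was 20 RAD21 reads in ESCs and 13 in EBs, both fewer than in the control region. The EB and ESC levels did not differ beyond counting error, at a ratio of 1.16 (0.637 to 2.08). Every 35-base sequence of the region occurs once in the genome, so no part of it was closed to reads of this length.

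The 4 pattern matches of the control region were also counted apart. The window of the pair of matches nearer to H19, with 250 bp on each side, held 21 ESC RAD21, 14 EB RAD21, 6 ESC IgG and 3 EB IgG reads in 969 bp. RAD21 was there 3.22 times IgG (1.26 to 9.74) in ESCs and 4.18 times in EBs (1.17 to 22.7). The window of the pair further off held 8, 7, 4 and 0 reads in the same order, in 758 bp. RAD21 was there 1.84 times IgG in ESCs (0.492 to 8.34), and in EBs at least 2.09 times with IgG set to 3 reads, with an exact interval that starts at 1.29. Per bp the nearer pair held 2.05 times the ESC RAD21 reads of the further pair (0.874 to 5.36) and 1.56 times the EB RAD21 reads (0.591 to 4.58), so the pairs did not differ beyond counting error. Within 100 bp of the single matches the ESC RAD21 library had 8, 4, 4 and 0 reads from the nearest to the furthest, and the EB RAD21 library 1, 6, 3 and 0. Match 4, with the same letters as match 1, therefore had no RAD21 read in either cell state.

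The densest 501 bp of the control region held 16 ESC RAD21 reads, centred 2327 bp upstream of the H19 start, and 10 EB RAD21 reads, centred 2510 bp upstream. Among deposited ESC sites on the autosomes, 7.66% had fewer than 16 reads around their summit and the median was 23. Among EB sites 0.992% had fewer than 10, and the median was 18. The control region thus lay at the low end of called sites in ESCs and below nearly all of them in EBs. The window was chosen for its reads, so its level is a description.

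**Figure D3:**
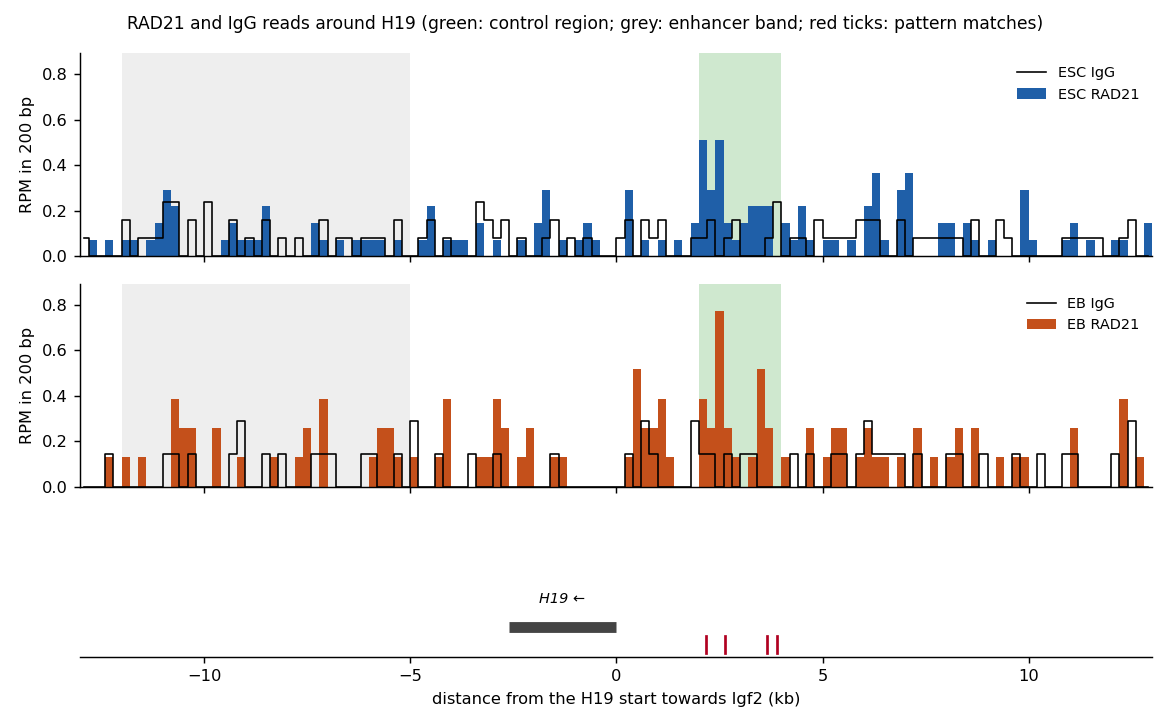
RPM in bins of 200 bp (y axis) around H19, by distance from the H19 start in kb (x axis, positive upstream towards Igf2), with RAD21 as bars and IgG as a black line, ESCs above and EBs below. The green band is the control region, the grey band the enhancer band and red ticks the 4 pattern matches. The tallest ESC bars and the tallest EB bar lie at the pair of matches nearer to H19.

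The enhancers beyond H19 are known to drive both H19 and Igf2 in endoderm. The annotation does not hold them, and a band 5000 to 12000 bp downstream of the H19 start was taken in their place. It held 30 ESC RAD21, 25 EB RAD21, 32 ESC IgG and 14 EB IgG reads, at 0.861 times IgG (0.506 to 1.46) in ESCs and 1.60 times in EBs (0.800 to 3.33). No RAD21 signal above IgG was detectable there at this depth. The H19 gene body held 12, 5, 6 and 1 reads in the same order, and RAD21 was not above IgG beyond counting error in either cell state. The stretch between the control region and Igf2, which separates the gene from H19, held 368 ESC RAD21 and 311 ESC IgG reads, a ratio of 1.09 (0.932 to 1.27). In EBs it held 215 RAD21 and 136 IgG reads, a ratio of 1.42 (1.14 to 1.77). The EB to ESC ratio of this stretch was 1.04 for RAD21 (0.871 to 1.23) and 0.795 for IgG (0.645 to 0.976). In random autosomal windows of like GC content these ratios were 0.736 and 0.735. The IgG interval lay under 1 but held the value of like windows. The RAD21 interval held 1 and lay above the value of like windows. The part of sequence composition in this was not tested.

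The Igf2 gene body held 68 ESC RAD21, 62 EB RAD21, 49 ESC IgG and 24 EB IgG reads. Its EB level was 1.62 times the ESC level (1.13 to 2.31), and RAD21 was 2.31 times IgG in EBs (1.42 to 3.87) and 1.28 times in ESCs (0.870 to 1.88). No bin of 1 kb within it reached the level of the shared sites. The Ins2 gene body held 112, 72, 132 and 68 reads in the same order. As annotated, it runs to the start of an extended transcript. Most of it therefore lies upstream of the start of the short transcript, 149865631 on chromosome 7. RAD21 was 0.780 times IgG there (0.601 to 1.01) in ESCs and 0.948 times in EBs (0.671 to 1.34). The EB level of the Ins2 body was 1.14 times the ESC level (0.835 to 1.55), an interval that overlaps that of the Igf2 body. In random windows of like GC content this ratio was 0.695 for the Igf2 body and 0.891 for the Ins2 body. The part of sequence composition was not tested.

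Outside its called sites the whole locus also held more RAD21 reads in EBs than in ESCs, relative to depth. Without the sites there were 1613 ESC RAD21, 1069 EB RAD21, 1483 ESC IgG and 767 EB IgG reads. In ESCs RAD21 was 0.999 times IgG (0.931 to 1.07), and in EBs 1.25 times (1.14 to 1.37). The EB to ESC ratio was 1.17 for RAD21 (1.09 to 1.27) and 0.941 for IgG (0.861 to 1.03). In random autosomal windows of like base composition these ratios were 0.797 and 0.790, since both EB libraries held a smaller share of their reads in GC-rich random windows than the ESC libraries. The locus, at 48.1% GC without its sites, was thus above windows of like composition in both EB libraries, and the part of sequence composition, mappability or background in this was not tested.

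**Figure D4:**
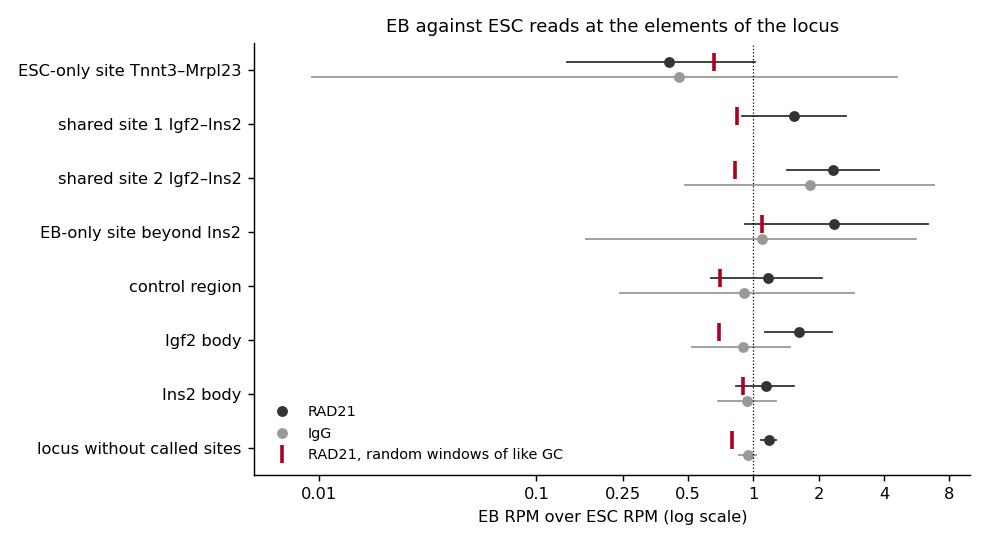
Ratio of EB to ESC RPM (x axis, log scale) for RAD21 (black) and IgG (grey) at the sites, the control region, gene bodies and the locus without its sites, with exact 95% intervals as lines. Red marks give the RAD21 ratio of random windows of like GC content; no IgG point is drawn where the EB IgG count was 0. The RAD21 intervals of the shared site nearer to Ins2, the Igf2 body and the locus without its sites lie above 1.

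In bins of 1 kb, RAD21 was above IgG in 7 of 325 bins in ESCs and in 17 in EBs, and 4 bins were shared by both. Of random windows reaching 500 bp to each side of a point, 1.26% were above IgG in ESCs and 0.804% in EBs. Those windows lay at least 2000 bp from any site, whereas the bins include the called sites, so the shares are not alike. The locus without its sites also had EB RAD21 at 1.25 times IgG, against 0.999 times in ESCs, and the part of this in the number of EB bins was not tested. Of the 17 EB bins, 6 had 0 EB IgG reads beside 6 to 8 EB RAD21 reads. The 4 bins above IgG in both cell states held the ESC-only site, the 2 shared sites and the part of the control region nearer to H19, where there were 21 ESC RAD21, 14 EB RAD21, 6 ESC IgG and 3 EB IgG reads. The first of them, at the ESC-only site, had 36, 10, 6 and 1 reads. The EB RAD21 reads of that bin were thus above EB IgG although the site is not in the EB list.

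No member was marked by RAD21 at its annotated, outermost gene start. Within 1000 bp of the start, H19 had 9 ESC RAD21, 9 EB RAD21, 7 ESC IgG and 4 EB IgG reads. Igf2 had 2, 5, 9 and 2 reads in the same order, and Ins2 had 7, 4, 13 and 6. All lay at or below the 95th percentile of random windows. ESC RAD21 was 1.18 times IgG at H19 (0.392 to 3.73), 0.204 times at Igf2 (0.0215 to 0.987, an interval that held 1 in windows of any other width tried) and 0.495 times at Ins2 (0.167 to 1.33). EB RAD21 was 2.01 times IgG at H19 (0.562 to 8.95), 2.24 times at Igf2 (0.366 to 23.5) and 0.597 times at Ins2 (0.124 to 2.52). The EB to ESC ratios were 1.77 (0.623 to 5.04), 4.43 (0.725 to 46.5) and 1.01 (0.217 to 3.98), each with an interval that held 1. The annotated Ins2 start is that of an extended transcript, and the start of the short transcript, 149865631 on chromosome 7, had 10, 7, 9 and 3 reads. Over all 34653 autosomal gene starts, ESC RAD21 was above IgG at 6.89% and EB RAD21 at 6.68%.

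Igf2 has several promoters, and transcripts within the gene gave a higher count than its outermost start. Around the start of transcript Igf2-005, at 149847775, there were 10 ESC RAD21, 17 EB RAD21, 5 ESC IgG and 5 EB IgG reads. Around that of Igf2-003, at 149847210, there were 14, 17, 5 and 3. The windows of these 2 starts overlap, so they share reads. Both EB RAD21 counts were above the 95th percentile of random windows, 13 reads, whereas both ESC RAD21 counts were below theirs, 20 reads. The EB level was 3.01 times the ESC level at Igf2-005 (1.30 to 7.36) and 2.15 times at Igf2-003 (0.998 to 4.71), against 4.57% of all gene starts higher in EBs and 3.63% lower. EB RAD21 was 3.04 times IgG at the first (1.08 to 10.6) and 5.07 times at the second (1.47 to 27.0), beside 6.68% of all gene starts above IgG in EBs. The EB to ESC ratio of IgG was 1.82 at the first (0.419 to 7.90) and 1.09 at the second (0.169 to 5.61). These 2 starts were singled out for their counts, so their levels are a description. The 3 remaining starts within Igf2 had 5 to 9 ESC RAD21 and 4 to 5 EB RAD21 reads.

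Of the other 9 genes of the interval, Mrpl23 had the most ESC RAD21 reads at its start, 18 against 4 of IgG, a ratio of 4.13 (1.36 to 16.8), with 6 EB RAD21 and 2 EB IgG reads. None of the 12 starts passed the 95th percentile of random windows in RAD21 reads. The other 8 had 6 to 12 ESC RAD21 and 2 to 8 EB RAD21 reads.

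**Figure D5:**
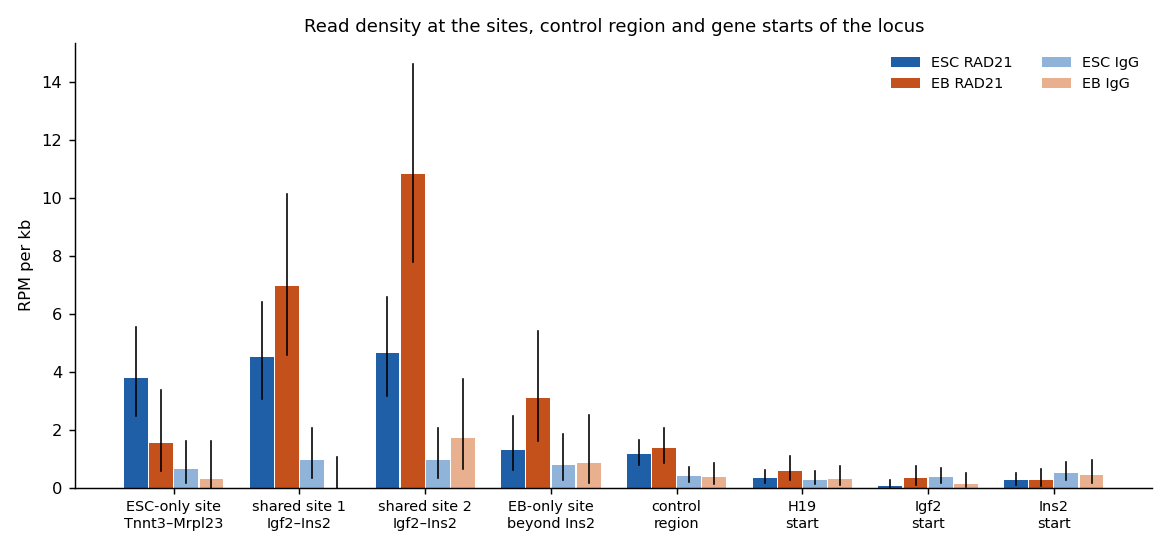
RPM per kb (y axis, from 0) at the 4 sites (501 bp), the control region (2001 bp) and the gene starts of the members (2001 bp), in the 4 libraries. Lines are exact 95% Poisson intervals of the counts. In the 2 RAD21 libraries the density of the control region lies between those of the sites and the gene starts. The sites were counted in a narrower window than the control region, and some of these intervals overlap.

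Over the interval the matrix had 40 matches at a rate of 1e-04, 23 on the plus and 17 on the minus strand. An ESC site held 2 of them and an EB site 3, as against 5.42% and 3.15% of all matches on chromosome 7. No match fell in the control region. At the rate of 1e-05 there was 1 match, of 19.2 bits, 59.3 kb from the H19 start on the far side from Igf2. It had 0 reads in each of the 4 libraries within 250 bp. It lay, with 1 other match, in a stretch of 1053 bp at chr7:149704000-149705052 that held no read centre of any library, although 80.9% of its 35-base sequences occur once in the genome. At the mean density of the locus 15.0 reads of the 4 libraries together would lie on those unique sequences. The edges of the stretch were set by the absence of reads, so its lack of reads was fixed in advance and the value is a description.

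The highest-scoring matches outside a site after this were that of 18.3 bits between the shared sites and that of 17.8 bits at 149939881, which had 3 ESC RAD21, 0 EB RAD21, 0 ESC IgG and 2 EB IgG reads. In the 1 kb bin that holds the latter, only 27.1% of the 35-base sequences occur once in the genome. Its low counts therefore do not show that RAD21 was absent there. RAD21 was above IgG at 4 of the 40 matches in ESCs and at 4 in EBs, beside 8.56% and 4.19% of all matches on chromosome 7. The IgG count was 0 at 1 of the ESC calls and at 3 of the EB calls. In both cell states these included the matches of the shared sites and the match at 149900766, of 14.9 bits, which lies 15351 bp upstream of the annotated Ins2 start and in no deposited site. It had 12 ESC RAD21, 7 EB RAD21, 1 ESC IgG and 0 EB IgG reads, and was singled out after its values were seen.

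Igf2 and Ins2 belong to the insulin-like growth factor pathway, in which Igf1 and Igf2 are ligands, Igf1r and Insr receptors, Igf2r the receptor that clears Igf2, and the Igfbp proteins bind the ligands in the extracellular space. Of 22 genes listed for it, 21 lie on autosomes and were measured. The EB level at the start was higher at 1 gene and lower at 1 of these 21, beside 4.57% and 3.63% over all gene starts, and a share so near the background is no result about the list. Igf2bp3, which encodes an RNA-binding protein that binds Igf2 mRNA, had 2 ESC and 7 EB RAD21 reads beside 7 ESC IgG and 2 EB IgG reads, an EB to ESC ratio of 6.20 (1.18 to 61.2). Igfbp2 had 21 ESC and 3 EB RAD21 reads beside 8 and 2 IgG reads, a ratio of 0.253 (0.0483 to 0.848). The median over the list was 1.06, beside 0.954 over all gene starts.

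A deposited ESC site lay within 1000 bp of the start of Insrr, Igfbp3 and Igfbp4, and an EB site within that distance of Igfbp3, Igfbp4 and Igfbp5. These are 3 of the 21 starts in each list, beside 2.92% of all gene starts with an ESC site and 2.68% with an EB site. Igfbp3, which encodes the main carrier of these ligands in blood, had 32 ESC RAD21, 26 EB RAD21, 10 ESC IgG and 5 EB IgG reads, and Igfbp4 had 22, 19, 14 and 5. Insrr, which encodes a receptor related to that of insulin, had 16, 5, 5 and 5, and Igfbp5 had 15, 9, 7 and 3. RAD21 was above IgG at the start of 3 of the 21 genes in ESCs and 2 in EBs, beside 6.89% and 6.68% over all gene starts.

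Of the 9 other imprinted loci compared, the number of sites within 100 kb ranged from 1 to 3 in ESCs and from 0 to 6 in EBs. Grb10 had the same counts as the H19 locus, with 3 ESC sites, 3 EB sites and 2 shared. Igf2r, whose product binds Igf2, had 2, 2 and 2, and Plagl1 had 3, 3 and 3. Peg10, Meg3 and Snrpn had ESC sites and no EB site. The H19 locus was thus within the range of these loci in all 3 counts.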

How the data were processed

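The authors sequenced 35-base reads on a Genome Analyzer II and deposited aligned positions on mm9. Their aligner is not given in the sources used here. Each deposited read line carries a count of 1, and no position and strand occurred more than once. MACS peaks were called by the authors in each cell state with its own IgG library. The deposited score is −10 times the log10 of the peak's p-value, and the deposited summit height is a signal of piled-up reads that was not used for comparison between libraries. Autosomal reads numbered 13714772 (ESC RAD21), 7740389 (EB RAD21), 12602155 (ESC IgG) and 6929293 (EB IgG). The EB IgG file ended within chromosome X, so scaling used autosomes, and 7 broken lines of the ESC IgG file were skipped. Chromosome 7 held 4.88 to 5.12% of the autosomal reads in each library. Read density over 100 kb at Rad21, where the transgene's reads fall, was 4.96 to 5.20 times the chromosome's median in all 4 libraries.

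Reads were moved by 50% of the fragment length (204 bp in ESCs, 195 bp in EBs) and counted within 250 bp of summits and 1000 bp of gene starts (GENCODE vM1). Ratios are of counts per autosomal read, with no pseudocount and with conditional binomial (Clopper-Pearson) intervals. A count of 0 was taken to allow 3 reads where a ratio is given as at least a value, which can exceed the exact lower limit printed beside it. The 50000 random windows lay at least 2000 bp from any site, in 20 classes of GC content. The CTCF matrix was learned from 6936 summits. Calculations used Python 3.11.15, NumPy 2.4.6, SciPy 1.17.1 and samtools 1.23.1, and the interval and motif code was tested on simulated data. All sequences are from the mm9 genome. The labels' groups were used, with 1 library each.

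Described were all members and sites, every gene of the interval (in full where a site or reads past the 95th percentile of random windows lay at the start, besides Mrpl23 as the highest, chosen after its values were seen), the pathway genes with a site or a changed ratio, and matches in a site with the 3 highest outside. The members, lists and control region were chosen with earlier results of these data known. Kcnq1ot1 and Irs4 were on the lists and not analysed here. The alternatives tried were other windows, scalings, pseudocounts, read positions, depths, overlaps, peak scores, flanks and motif limits.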

Additional observations from a re-analysis of the deposited data

How the results depend on the processing

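Of 165 alternative values for 31 results, 143 kept their call or stayed close to the main count or share, and no called value reversed. Uncalled ratios with intervals that held 1 changed side at gene starts: ESC RAD21 to IgG at Ins2 (0.495, but 1.84 within 100 bp and 1.38 within 250 bp) and at H19 (1.18, but 0 within 250 bp), and EB to ESC RAD21 at Ins2 (1.01, but 0.591 within 250 bp). A flank of 200 kb gave 5 ESC and 5 EB sites. Among EB sites with a score of at least 100, the shared share was 100%. The EB to ESC ratio of the shared site nearer to Ins2 left out 1 under every alternative that gave an interval. With random windows of like GC content set to 1, the ratio at the shared site nearer to Igf2 was 1.84 (1.06 to 3.19) and left out 1 too, but it was 1.20 with the median of shared sites set to 1. With the median of shared sites set to 1, that at the ESC-only site was 0.318 (0.107 to 0.790), against 0.622 under the GC setting, and within 500 bp that at the EB-only site was 2.51 (1.13 to 5.76). EB RAD21 against IgG was 8.95 within 500 bp at the ESC-only site. At the EB-only site with IgG set to 3 reads it was at least 2.09 within 100 bp (exact lower limit 1.29), 3.04 within 500 bp and 3.75 with random windows set to 1. At the shared site nearer to Igf2 it was at least 5.67 within 100 bp with IgG set to 3 reads (exact lower limit 4.18). At the motif rate of 1e-04 in place of 1e-05, 2 ESC and 3 EB sites had a match, and 3 matches of the interval lay in a called site. At the Igf2 start, ESC RAD21 was below IgG within 1000 bp and within counting error at 250, 500 and 2000 bp, and with random windows set to 1.

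The control region was above IgG in both cell states with its edges set by the pattern matches (2.92 in ESCs, 3.94 in EBs) and under the other scalings, which were chosen after seeing the data. No paired analysis was possible because each group holds 1 library. Depth limits differences at single sites: 27 against 31 reads left an interval from 0.886 to 2.67, and at gene starts with under 10 reads a difference of a few-fold was not detectable. Culture, differentiation, precipitation and sequencing differ together between ESCs and EBs and cannot be told apart.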
